A study of Mus musculus with 32 samples.

Results

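The 9 genes described here encode interferon regulatory factors (Irf1, Irf2, Irf3, Irf4, Irf5, Irf7, Irf8 and Irf9) and Stat2, and were chosen by gene symbol. They are 9 of the 24940 genes in the authors' expression table, and all 9 were among the 12277 genes tested, those with a mean of at least 1 TPM, a level scaled to the gene's length and to the library. The study measured RNA (RNA-seq) and open chromatin (ATAC-seq) in 4 kinds of lung phagocyte, taken from untreated mice of the inbred strains DBA2J and C57BL6J. The macrophages are alveolar (AM) or interstitial (IM), and the monocytes are inflammatory (iMo) or patrolling (pMo). They were separated by flow cytometry on SiglecF, Ly6g, Ly6c, CD64, CD11b, CD11c, F4/80 and CD45. One label field calls the iMo monocytes and another calls them macrophages, and the labels give neither the age of the mice nor whether replicates came from separate animals. Each of the 8 groups, a cell type in a strain, has 2 RNA libraries and 1 peak list made from 2 ATAC libraries, so that p-values measure only the spread between these libraries.

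Interferon regulatory factors bind DNA through a shared N-terminal domain that reads repeats of GAAA. IRF3, IRF5 and IRF7 lie in the cytoplasm until kinases below the receptors for viral or bacterial nucleic acid phosphorylate them, and then switch on the type I interferon genes. Secreted interferon acts through its receptor and the Janus kinases on STAT2, which joins IRF9 in ISGF3, the complex that binds the interferon-stimulated response element (ISRE). IRF1 and IRF2 bind the same element and oppose each other at many genes. IRF4 and IRF8 are found mainly in immune cells and bind DNA largely together with partners such as PU.1, and IRF8 is needed for monocyte and dendritic cell development. In the lung, macrophages and monocytes are among the cells that meet inhaled viruses, and alveolar macrophages can make type I interferon.

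Promoter stretches of 6 of the genes are shown because the promoters differed between the cell types in open chromatin (Irf5 and Irf7) or hold letters that IRF or STAT proteins are known to bind (the other 4). The sequences are RefSeq's for GRCm38.p6, read 5′ to 3′ on the gene's strand and ending before the start site. In the first 4, capitals mark every match to the ISRE core (GAAA, any 2 bases, GAAA), to the composite element of IRF4 or IRF8 with PU.1 (EICE; GGAA, any 2 bases, GAAA) or to TTCNNNGAA (the STAT site GAS), on either strand. In the last pair, capitals mark the bases inside the peak of an iMo list, the C57BL6J list for Irf7 and the DBA2J list for Irf5.
Irf1, chr11:53769904-53769953, plus strand: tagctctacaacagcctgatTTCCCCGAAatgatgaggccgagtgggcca
Irf2, chr8:46739495-46739544, plus strand: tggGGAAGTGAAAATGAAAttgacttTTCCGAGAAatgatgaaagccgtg
Irf8, chr8:120736173-120736222, plus strand: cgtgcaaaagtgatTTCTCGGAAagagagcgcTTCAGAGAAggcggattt
Stat2, chr10:128270258-128270307, plus strand: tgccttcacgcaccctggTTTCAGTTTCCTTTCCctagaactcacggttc
Irf7, chr7:141266500-141266674, minus strand: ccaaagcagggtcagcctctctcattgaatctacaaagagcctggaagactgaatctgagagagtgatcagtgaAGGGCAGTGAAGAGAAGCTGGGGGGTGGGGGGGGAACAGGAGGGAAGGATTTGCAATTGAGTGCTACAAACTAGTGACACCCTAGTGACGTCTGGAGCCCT
Irf5, chr6:29526425-29526624, plus strand: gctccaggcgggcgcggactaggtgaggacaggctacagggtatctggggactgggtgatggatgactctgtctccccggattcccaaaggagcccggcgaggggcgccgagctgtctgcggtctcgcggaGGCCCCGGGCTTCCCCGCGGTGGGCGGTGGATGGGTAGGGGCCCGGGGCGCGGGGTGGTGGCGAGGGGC

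Over the 12 RefSeq promoter windows of the 9 genes, each from 250 bases before to 50 after a start site, the ISRE core occurred in Irf2 and Stat2, against 3.44% of all 32851 promoters. The EICE occurred in the same promoters, against 2.72% of all, and each of its matches overlapped the ISRE match. GAS occurred in Irf1, in Irf2 and at the upstream start of Irf8, where it occurred 2 times, against 8.30% of all promoters. The PU.1 core GAGGAAGT was in none of the 12 windows and in 3.20% of all, and Irf7's window held none of these 4 motifs. A match describes letters only and is not evidence of binding.

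The deposited TPM values were scaled by the genomic span of each gene, introns included, which the table's length column equals for 99.2% of genes. A level therefore understates genes with long introns such as Irf2 (107713 bp) against short ones such as Irf7 (3241 bp), while a gene's differences between libraries are not touched by this. The values were whole multiples of 1 read per library, which gave 6676151 to 22616614 reads per library and 28 to 7077 reads behind each value of the 9 genes. The 2 ribosomal entries took 64.3% to 67.6% of the listed TPM in AM, 40.9% to 45.0% in IM, 22.6% to 44.7% in iMo and 43.0% to 57.4% in pMo, which lowers every other gene's TPM in step. Over all tested genes the log2 difference had a median of -0.68 between AM and IM, -0.55 between AM and iMo and -0.42 between AM and pMo. Between IM and iMo this median was 0.10, between IM and pMo 0.26 and between iMo and pMo 0.13. Values from median-of-ratios scaling, under which these medians lie between -0.05 and 0.06, are therefore given for the 9 genes beside the differences of AM. Beside their other differences they are given where they change a call. For genes outside the 9, differences are on deposited TPM unless stated, and not every count is given under both scalings. With median-of-ratios scaling 4064 tested genes were called higher and 3534 lower in AM than in IM, against 1128 and 7496 on deposited TPM. The counts were 3404 higher and 3473 lower in AM than in iMo (1457 and 6669 on deposited TPM) and 3608 higher and 3702 lower in AM than in pMo (1863 and 5720). They were 2509 higher and 3107 lower in IM than in iMo (2667 and 1917), 2463 and 2922 in IM than in pMo (3719 and 1130), and 1557 and 1555 in iMo than in pMo (2324 and 781). Each type had the highest summed level of its own marker list, and Siglecf averaged 179 TPM in AM and 31.8 in IM, C1qa 0.970 in AM and 1061 in IM, Ly6c2 471 in iMo and 8.80 in pMo, and Cd300e 9.14 in iMo and 207 in pMo. Not every marker followed its label, since Fabp4 averaged 12.8 TPM in AM and 37.7 in pMo, and Pparg 15.5 in AM and 19.0 in pMo. The IM libraries also held RNA of other types' markers. Those of inflammatory monocytes summed over 8 genes to 420 to 1249 TPM in AM, 1240 to 1934 in IM, 2340 to 3296 in iMo and 173 to 311 in pMo, with Ly6c2 at a mean of 103 TPM in IM. The 12 alveolar macrophage markers summed to 3904 to 4816 TPM in AM, 1165 to 2026 in IM, 440 to 898 in iMo and 1404 to 1989 in pMo. The 9 neutrophil markers summed to 19.2 to 27.3 TPM in AM and 2874 to 4725 TPM in IM, with 178 to 240 TPM in iMo and 111 to 162 TPM in pMo, with Ly6g itself at a mean of 1.12 TPM in IM. The 8 B cell markers summed to 15.0 to 54.7 TPM in AM and 108 to 405 TPM in IM, with 60.2 to 273 TPM in iMo and 104 to 1209 TPM in pMo, of which Cd22 averaged 479 in pMo. Those of plasmacytoid dendritic cells, a cell type rich in Irf7 and Irf8, summed over 8 markers to 32.0 to 37.5 TPM in AM, 108 to 208 in IM, 73.3 to 163 in iMo and 63.2 to 199 in pMo, with Siglech at a mean of 28.8 TPM in IM and at most 0.881 in the other types. The 8 conventional dendritic cell markers summed to 3.86 to 7.29 TPM in AM, 55.0 to 84.4 in IM, 51.4 to 81.6 in iMo and 62.4 to 112 in pMo. Those of T and NK cells summed to 1.66 to 10.8 TPM in AM, 18.0 to 42.7 in IM, 4.47 to 65.1 in iMo and 12.2 to 111 in pMo. The part of such cells in the results below was not tested, and in sorted bulk RNA fewer cells of a type and less RNA per cell cannot be told apart.

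All of the 9 genes but Irf3 had their lowest mean level in AM, and all but Irf2 and Irf3 had their highest in iMo. Called lower in AM than in IM were 8 of the 9 (all but Irf3), where 61.1% of all tested genes were lower and 9.19% higher in AM. All 9 were lower in AM than in iMo, where 54.3% of all tested genes were lower and 11.9% higher, and all 9 were lower in AM than in pMo, where 46.6% were lower and 15.2% higher. Their median log2 difference was -2.07 between AM and IM, -2.82 between AM and iMo and -2.07 between AM and pMo. A call means a Benjamini-Hochberg adjusted p under 0.05 over all tested genes in limma on log2(TPM + 1). With median-of-ratios scaling 7 were lower and 1 higher in AM than in IM, 8 were lower in AM than in iMo, and 7 were lower in AM than in pMo. The 7 genes other than Irf3 and Irf8 were lower in AM in each of these 3 comparisons under both scalings.

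**Figure D1:**
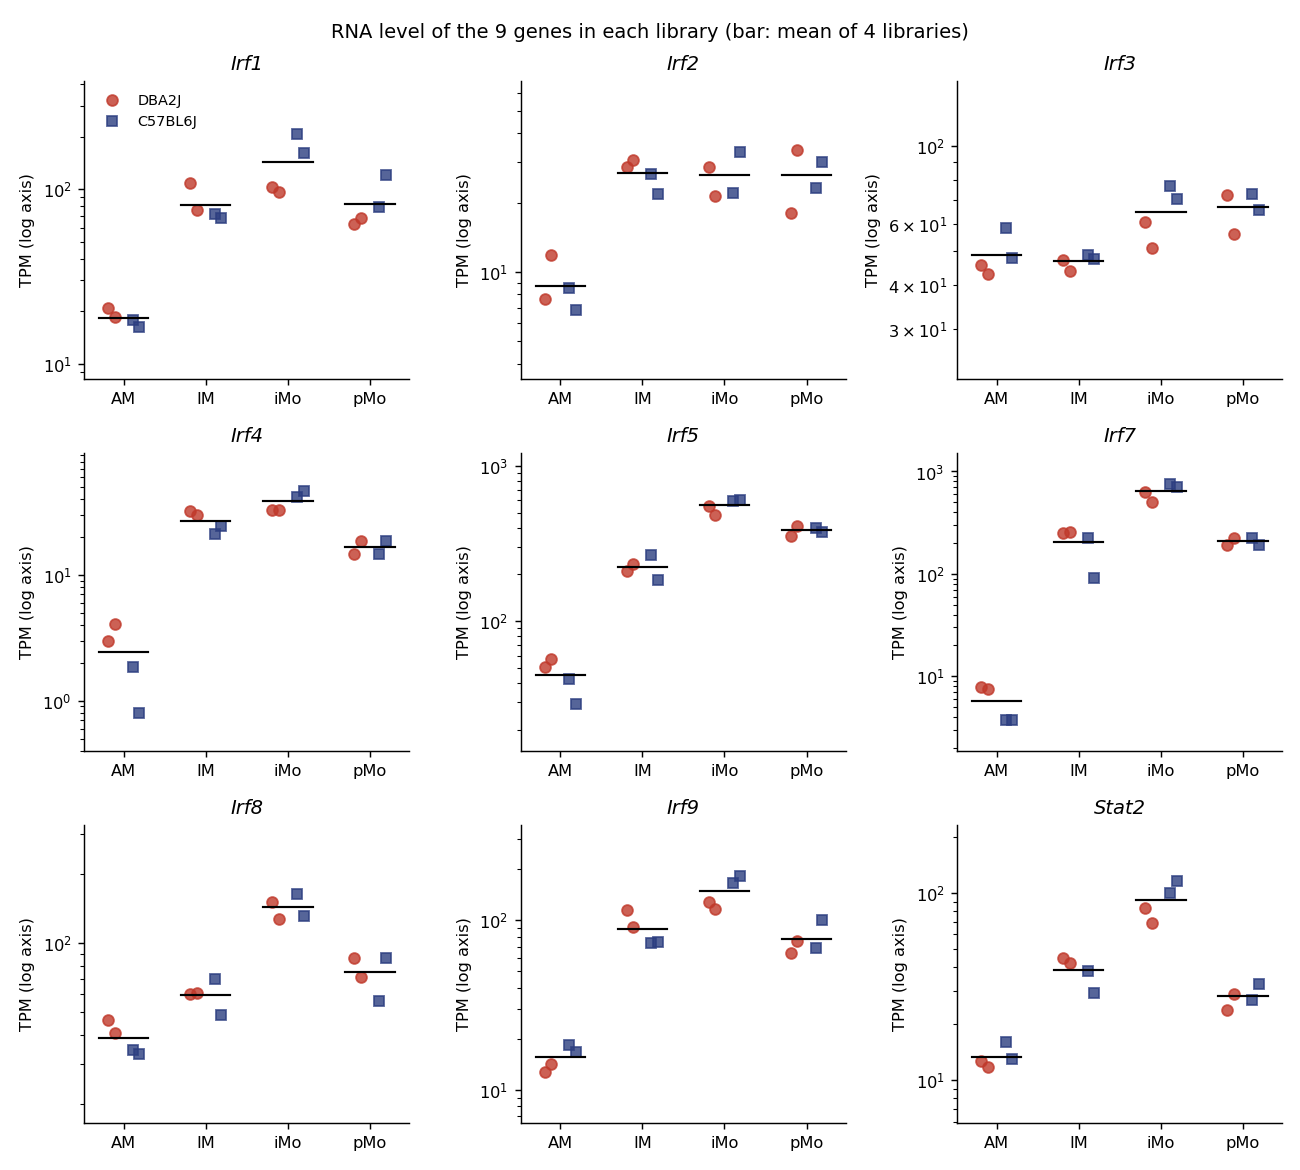
TPM (log axis) of each gene in every library, by cell type, with circles for DBA2J, squares for C57BL6J and a bar at the mean of the 4 libraries of a cell type. Irf7 lies between 3.71 and 7.87 TPM in AM and between 500 and 760 TPM in iMo, whereas Irf3 lies between 43.1 and 76.8 TPM throughout.

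Irf7, which drives the late and broad wave of type I interferon, had the largest differences of AM from the other types among the 9 genes (chr7:141263183-141266424 in mm10, the build of all gene coordinates here, minus strand). In AM its levels were 7.87 and 7.47 TPM in DBA2J and 3.74 and 3.71 TPM in C57BL6J, on 28 to 91 reads. IM had 253 and 259 TPM in DBA2J and 224 and 90.8 TPM in C57BL6J. Among monocytes, iMo had 632 and 500 TPM in DBA2J and 760 and 700 TPM in C57BL6J, and pMo had 190 and 226 TPM in DBA2J and 223 and 193 TPM in C57BL6J. No AM library came near any other library, and the iMo libraries lay above all others, while IM and pMo overlapped. The log2 difference was -4.91 ± 0.22 (SE) for AM against IM, -6.65 ± 0.22 against iMo and -5.03 ± 0.22 against pMo, with adjusted p of 1.1e-08, 1.0e-09 and 7.9e-09. Median-of-ratios scaling gave -4.08, -6.00 and -4.57. Irf7 was also higher in iMo than in pMo, by 1.62 ± 0.22 (adjusted p = 3.0e-04), and lower in IM than in iMo, by a difference of -1.74 ± 0.22 (adjusted p = 1.1e-04). The second C57BL6J IM library stood apart with 90.8 TPM, and without it the difference was -5.23 for AM against IM, -1.42 for IM against iMo and 0.21 for IM against pMo. The first and second of these values were past the threshold. For IM against pMo, the difference was -0.12 ± 0.22 with all libraries (adjusted p = 0.699), 0.21 without the second C57BL6J IM library (adjusted p = 0.177) and -0.44 without the first (adjusted p = 0.0117).

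Irf5, which acts below Toll-like receptors and favours inflammatory cytokines, followed a graded order (chr6:29529282-29537320, plus strand). It averaged 44.9 ± 12.1 TPM in AM and 223 ± 35.3 TPM in IM, with 558 ± 55.1 TPM in iMo and 385 ± 23.2 TPM in pMo (SD, n = 4 libraries each), and each neighbouring pair in that order differed in the test. The libraries of the 4 cell types did not overlap, with AM at 29.1 to 57.1 TPM and IM at 184 to 267 TPM. AM differed from IM by -2.32 ± 0.14, from iMo by -3.64 ± 0.14 and from pMo by -3.11 ± 0.14 (adjusted p up to 1.3e-07), or by -1.43, -2.93 and -2.59 with median-of-ratios scaling. IM were lower than iMo by a log2 difference of -1.32 ± 0.14 (adjusted p = 3.2e-05) and lower than pMo by one of -0.79 ± 0.14 (adjusted p = 0.00110). The step between the monocytes was small, at 0.53 ± 0.14 for iMo against pMo (adjusted p = 0.0177), and did not pass with median-of-ratios scaling (0.34, adjusted p = 0.0988). It also missed the threshold without the first DBA2J iMo library (0.49, adjusted p = 0.0684) or the first DBA2J pMo library (0.48, adjusted p = 0.0619).

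Irf3, the factor that is held ready in the cytoplasm of most cells, had cell type means between 46.9 and 66.8 TPM (chr7:44997648-45002848, plus strand). Its levels in AM were 45.8 and 43.1 TPM in DBA2J and 58.3 and 48.0 TPM in C57BL6J, and in IM 47.4 and 44.0 TPM in DBA2J and 48.8 and 47.5 TPM in C57BL6J. In iMo it had 60.9 and 51.3 TPM in DBA2J and 76.8 and 70.8 TPM in C57BL6J, and in pMo 72.3 and 56.1 TPM in DBA2J and 73.0 and 65.8 TPM in C57BL6J. AM overlapped all other types, and IM lay just below both monocytes. AM and IM differed by 0.05 ± 0.11 (adjusted p = 0.711), while IM were lower than iMo by a log2 difference of -0.45 ± 0.11 and lower than pMo by one of -0.49 ± 0.11 (adjusted p = 0.00866 and 0.00478). Its direction in AM hung on the scaling: AM were lower than iMo by -0.40 ± 0.11 (adjusted p = 0.00800) and than pMo by -0.45 ± 0.11 (adjusted p = 0.00461) on deposited TPM, but median-of-ratios scaling gave differences of 0.31 and 0.07 (adjusted p = 0.143 and 0.725). Against IM that scaling put Irf3 higher in AM, by 0.93 (adjusted p = 7.4e-04).

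Stat2 and Irf9, both subunits of ISGF3, had their highest level in iMo. Stat2 (chr10:128270498-128292853, plus strand) had 12.6 and 11.8 TPM in DBA2J AM and 15.9 and 12.9 TPM in C57BL6J AM. It had 45.2 and 42.5 TPM in DBA2J IM, 38.2 and 29.1 TPM in C57BL6J IM, 83.3 and 69.4 TPM in DBA2J iMo and 100 and 116 TPM in C57BL6J iMo. In pMo the values were 23.7 and 29.0 TPM in DBA2J and 26.9 and 32.6 TPM in C57BL6J. AM lay below and iMo above all other libraries, and IM and pMo overlapped at their edges. Stat2 was higher in iMo than in pMo by 1.67 ± 0.13 (adjusted p = 7.4e-06), and AM and iMo differed by -2.69 ± 0.13 (adjusted p = 1.5e-08). The differences of AM from IM and pMo were -1.46 ± 0.13 and -1.02 ± 0.13 (adjusted p = 2.8e-06 and 4.5e-05). After median-of-ratios scaling those of AM from IM, iMo and pMo were -0.60, -2.00 and -0.52 (adjusted p up to 7.5e-04). Between IM and pMo it differed by 0.44 ± 0.13 (adjusted p = 0.0197), and by 0.08 with median-of-ratios scaling (adjusted p = 0.513). That call was also lost without the first DBA2J or the first C57BL6J library of either IM or pMo (0.35 to 0.42, adjusted p from 0.0584 to 0.0720). Irf9 (chr14:55604579-55610030, plus strand) averaged 15.6 ± 2.52 TPM in AM and 88.5 ± 19.3 TPM in IM, with 149 ± 31.2 TPM in iMo and 77.4 ± 16.3 TPM in pMo (SD, n = 4 each). AM libraries, at 12.8 to 18.4 TPM, lay below all others, at 64.4 TPM or more, and the differences of AM were -2.42 ± 0.13 from IM, -3.16 ± 0.13 from iMo and -2.23 ± 0.13 from pMo, with adjusted p up to 7.8e-08. Median-of-ratios scaling put them at -1.55, -2.47 and -1.73. Between iMo and pMo Irf9 differed by 0.93 ± 0.13 (adjusted p = 4.1e-04).

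Irf1 and Irf2, an activator and a repressor that share binding sites, differed in how far they separated the cell types. Irf1 (chr11:53770014-53777324, plus strand) averaged 18.4 ± 1.94 TPM in AM and 81.6 ± 18.7 TPM in IM, with 142 ± 52.6 TPM in iMo and 82.5 ± 25.6 TPM in pMo (SD, n = 4 each). AM, at 16.3 to 21.0 TPM, lay apart from all others, at 63.4 TPM or more, and the other 3 types overlapped. The log2 differences of AM were -2.07 ± 0.15 from IM, -2.82 ± 0.15 from iMo and -2.07 ± 0.15 from pMo (adjusted p = 6.3e-07, 3.8e-08 and 5.2e-07), or -1.20, -2.12 and -1.56 with median-of-ratios scaling. Between iMo and pMo Irf1 differed by 0.75 ± 0.15 (adjusted p = 0.00427). Irf2 (chr8:46739745-46847458, plus strand) averaged 8.72 ± 2.24 TPM in AM and 27.0 ± 3.85 TPM in IM, with 26.4 ± 5.60 TPM in iMo and 26.3 ± 7.02 TPM in pMo (SD, n = 4 each). The AM libraries lay at 6.84 to 11.9 TPM and the 12 others at 18.1 to 33.8 TPM with no order among the types. AM were lower by log2 differences of -1.54 ± 0.22, -1.5 ± 0.22 and -1.48 ± 0.22 from IM, iMo and pMo (adjusted p from 9.3e-05 to 1.4e-04). Median-of-ratios scaling gave -0.71, -0.83 and -1.0, with adjusted p from 8.5e-05 to 0.00104. The 3 differences among IM, iMo and pMo lay between 0.02 and 0.07, each with an SE of 0.22, and none passed.

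Irf4, known for its role in lymphocytes and in dendritic cells and macrophages of the type 2 response, was low in AM and present in the rest (chr13:30749233-30766981, plus strand). AM had 3.0 and 4.04 TPM in DBA2J and 1.85 and 0.794 TPM in C57BL6J, on 54 to 219 reads. IM had 32.4 and 30.0 TPM in DBA2J and 21.2 and 24.6 TPM in C57BL6J. The iMo had 32.8 and 33.1 TPM in DBA2J and 42.1 and 46.9 TPM in C57BL6J, and the pMo 14.7 and 18.5 TPM in DBA2J and 14.6 and 18.8 TPM in C57BL6J. The 4 cell types did not overlap at any step, with iMo highest, then IM, then pMo, then AM. AM differed from IM by -3.12 ± 0.16, from iMo by -3.62 ± 0.16 and from pMo by -2.46 ± 0.16 (adjusted p = 3.3e-08, 7.2e-09 and 1.8e-07), or -2.40, -3.08 and -2.10 with median-of-ratios scaling. Irf4 was higher in iMo than in pMo by 1.16 ± 0.16 (adjusted p = 3.6e-04) and higher in IM than in pMo by 0.66 ± 0.16 (adjusted p = 0.00759, or 0.30 and adjusted p = 0.117 with median-of-ratios scaling). IM were lower than iMo by -0.51 ± 0.16 (adjusted p = 0.0290), a call lost without any one of 6 of the 8 libraries compared (adjusted p from 0.0572 to 0.0835).

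Irf8, the factor tied to monocyte identity, kept a sizeable level in AM (chr8:120738639-120756692, plus strand). AM had 46.5 and 40.6 TPM in DBA2J and 34.2 and 33.1 TPM in C57BL6J, and IM had 60.0 and 60.5 TPM in DBA2J and 69.8 and 48.7 TPM in C57BL6J. The iMo had 151 and 128 TPM in DBA2J and 164 and 131 TPM in C57BL6J, and the pMo 86.2 and 71.1 TPM in DBA2J and 56.2 and 86.0 TPM in C57BL6J. All iMo libraries lay above all others and all AM libraries below, while IM and pMo overlapped. Irf8 was higher in iMo than in pMo by 0.94 ± 0.16 (adjusted p = 0.00127) and lower in AM than in iMo by a difference of -1.87 ± 0.16 (adjusted p = 1.3e-06; -1.17 with median-of-ratios scaling, adjusted p = 2.7e-04). Against IM, AM differed by -0.62 ± 0.16 (adjusted p = 0.00460) on deposited TPM but by 0.26 with median-of-ratios scaling (adjusted p = 0.230). Against pMo the values were -0.93 ± 0.16 (adjusted p = 3.9e-04) and -0.41 (adjusted p = 0.0745).

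Between the other types, 8 of the 9 genes were lower in IM than in iMo (all but Irf2), where 15.6% of all tested genes were lower and 21.7% higher in IM. Their median log2 difference was -0.75. Of the 9, 7 were higher in iMo than in pMo (all but Irf2 and Irf3) and none was lower, where 18.9% of all tested genes were higher and 6.36% lower in iMo. The median was 0.93, and 6 were higher with median-of-ratios scaling. Between IM and pMo the 9 genes were divided, with Irf4 and Stat2 higher in IM and Irf3 and Irf5 lower, where 30.3% of all tested genes were higher and 9.20% lower in IM. With median-of-ratios scaling none was higher in IM and Irf3, Irf5 and Irf8 were lower (Irf8 by -0.68, adjusted p = 0.0123).

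**Figure D2:**
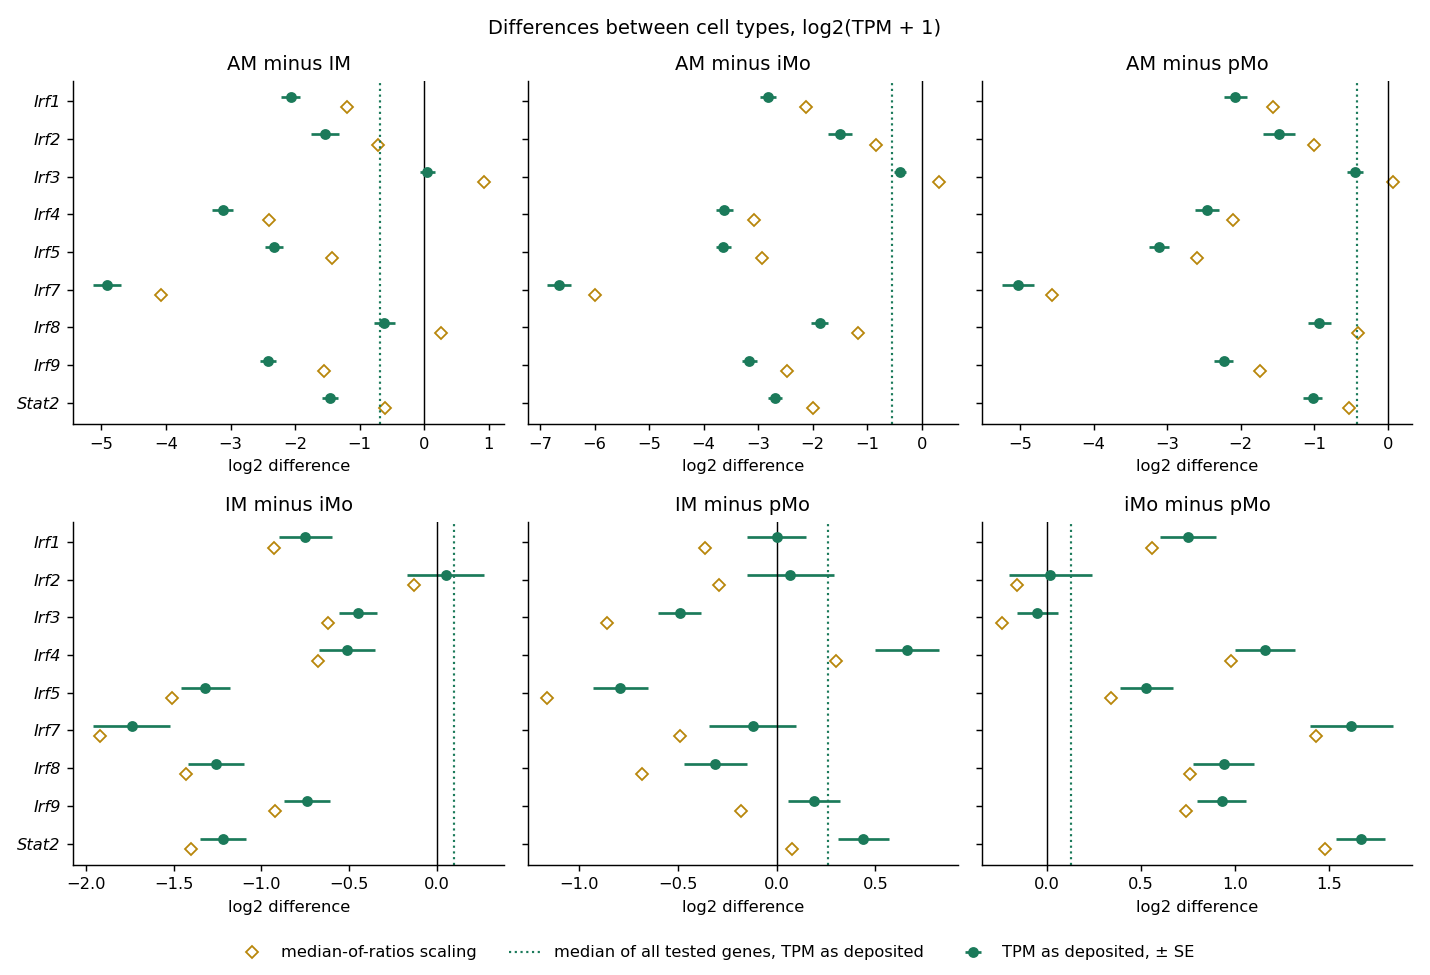
Log2 difference of each gene in the 6 comparisons of cell types, with filled circles and bars for deposited TPM ± SE, open diamonds for median-of-ratios scaling, and a dotted line at the median of all tested genes on deposited TPM. In the 3 panels with AM, Irf7 lies between -6.65 and -4.08 and Irf3 between -0.45 and 0.93 over both scalings.

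Few of the 9 genes were called between the strains. So few genes cannot show whether their share differs from the shares of all tested genes given below. On average over the cell types none of the 9 genes was called between DBA2J and C57BL6J, where 11.7% of all tested genes were called in either direction. At an unadjusted p under 0.05 there was 1, Irf3. The share of all tested genes at an unadjusted p under 0.05 is not given, here or for the comparisons below. Counts at that threshold therefore do not compare with the shares called. The averages ran from -0.22 ± 0.11 for Irf1 to 0.33 ± 0.15 for Irf7. Median-of-ratios scaling called Irf4 (0.34, adjusted p = 0.0454) and so did voom, limma's model for counts, on the recovered reads (0.43, adjusted p = 0.0132). Irf7 passed on average without the first C57BL6J IM library (0.50, adjusted p = 0.00177). Irf4 in AM was the single call within a cell type, with 3.0 and 4.04 TPM in DBA2J and 1.85 and 0.794 TPM in C57BL6J, a difference of 0.99 ± 0.23 (adjusted p = 0.0405), where 3.28% of all tested genes were called. It was 0.99 with median-of-ratios scaling (adjusted p = 0.0179) and 1.50 with voom (adjusted p = 0.00550), and it missed the threshold when any one of 9 of the 16 libraries was left out (0.65 to 1.15, adjusted p from 0.0533 to 0.398). Irf7 in AM, with 7.87 and 7.47 TPM in DBA2J against 3.74 and 3.71 TPM in C57BL6J, differed by 0.88 ± 0.31 and was not called (adjusted p = 0.227). This difference passed without either C57BL6J IM library, fits that leave 1 library in a group of another cell type. With median-of-ratios scaling it was 0.78 (adjusted p = 0.245) and with voom 0.90 (adjusted p = 0.484), on 28 to 91 reads. In IM 10.5% of all tested genes were called and none of the 9, with 2 at an unadjusted p under 0.05 and none with voom. Irf7 there differed by 0.84 ± 0.31 and did not pass (adjusted p = 0.112), with 253 and 259 TPM in DBA2J against 224 and 90.8 TPM in C57BL6J. Without the first C57BL6J IM library it was 1.49 (adjusted p = 6.7e-04), and without the second 0.19 (adjusted p = 0.648). In iMo 3.47% of all tested genes were called and none of the 9, with 4 at an unadjusted p under 0.05 and none with voom. Irf1 came nearest, with 103 and 96.1 TPM in DBA2J against 208 and 162 TPM in C57BL6J (-0.87 ± 0.22, adjusted p = 0.0562). This difference passed without either DBA2J IM library or either C57BL6J pMo library, fits that leave 1 library in a group of another cell type. With median-of-ratios scaling it was -0.68 (adjusted p = 0.173) and with voom -0.76 (adjusted p = 0.0668). Over all tested genes the median strain difference in iMo was -0.14 on deposited TPM. In pMo 3.66% of all tested genes were called and none of the 9, with 1 at an unadjusted p under 0.05 and none with voom.

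The test of whether the strain difference varied between cell types called 4.03% of all tested genes and none of the 9, with 5 at an unadjusted p under 0.05. Irf1 and Irf4 came nearest, with adjusted p of 0.0834 and 0.0921. Those 5, Irf1, Irf4, Irf7, Irf9 and Stat2, were lower in both DBA2J iMo libraries than in both C57BL6J ones and higher in both DBA2J IM libraries, without a passing test of that difference (adjusted p from 0.0834 to 0.220). They were picked by this test on the same values, and the share of all tested genes with that pattern is not given. Ribosomal entries took 32.3% and 44.7% of the listed TPM in DBA2J iMo, against 26.3% and 22.6% in C57BL6J iMo. With median-of-ratios scaling the 5 iMo differences lay between -0.68 and -0.18, against -0.87 and -0.37 on deposited TPM. Irf4 passed with voom (adjusted p = 0.0199) and Irf9 with median-of-ratios scaling (adjusted p = 0.0472). Irf7 passed without the second C57BL6J IM library (adjusted p = 0.0305) or without the first (adjusted p = 0.00297), and without the first C57BL6J pMo library Irf1 (adjusted p = 0.0308) and Irf9 (adjusted p = 0.0489) passed.

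The other genes of the pathway were taken from lists chosen by known role. Of 25 tested interferon-stimulated target genes, all 25 were lower in AM than in IM (median -3.03), all 25 lower in AM than in iMo (median -4.25) and 22 lower in AM than in pMo (median -2.07), and none was higher in AM in any of these, where 61.1%, 54.3% and 46.6% of all tested genes were lower in AM. With median-of-ratios scaling the counts were 23, 25 and 22. Oas2, an enzyme that senses double-stranded RNA, averaged 0.488 TPM in AM and 69.6 TPM in IM, a log2 difference of -5.50 ± 0.23. Mx1, an antiviral GTPase, averaged 0.272 TPM in AM and 86.7 TPM in iMo (-6.10 ± 0.45). Between iMo and pMo 23 of the 25 were higher in iMo and none lower (median 1.79), where 18.9% of all tested genes were higher in iMo, and the count was 23 with median-of-ratios scaling. Cxcl10, a chemokine that draws T cells, averaged 54.8 TPM in iMo and 2.69 TPM in pMo (4.14 ± 0.41), and Isg15, a ubiquitin-like protein, 77.8 TPM in iMo and 11.9 TPM in pMo (2.68 ± 0.49). IM were lower than iMo in 15 of the 25 and higher in none (median -0.90). Among all tested genes 15.6% were lower and 21.7% higher in IM than in iMo. IM were higher than pMo in 13 and lower in 1 (median 0.92), beside 30.3% higher and 9.20% lower among all. With median-of-ratios scaling 21 were lower in IM than in iMo, and against pMo 12 were higher and 2 lower in IM. Between strains 1 of the 25, Xaf1, was called on average (1.15 ± 0.16 for DBA2J against C57BL6J, with 61.8 TPM and 31.8 TPM), beside 11.7% of all tested genes. In AM it was again Xaf1, at 6.71 TPM in DBA2J and 1.54 TPM in C57BL6J (1.60 ± 0.32, adjusted p = 0.0188). In IM 5 were higher in DBA2J (8 with median-of-ratios scaling and 13 with voom), among them Isg15, at 72.6 TPM in DBA2J and 5.62 TPM in C57BL6J (4.00 ± 0.69, adjusted p = 0.00489), where 10.5% of all tested genes were called. The C57BL6J IM libraries differed between themselves, with an SD of 6.75 TPM around that 5.62 and 0.851 TPM in the lower one. Marker lists moved in the same comparison of IM: of 12 alveolar macrophage markers 5 were lower and 1 higher in DBA2J (median -1.26), of 8 inflammatory monocyte markers 3 were higher and 1 lower (median 0.76), and of 7 tested neutrophil markers 2 were higher (median 0.80). Their part in the interferon-stimulated genes was not tested.

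Of the 10 tested interferon receptors and Janus kinases, 9 were lower in AM than in IM, 9 lower than in iMo and all 10 lower than in pMo, with none higher, beside 61.1%, 54.3% and 46.6% of all tested genes. Medians were -1.86, -1.39 and -1.53, and 8 were lower in each, with 1 higher in AM than in IM, after median-of-ratios scaling. Ifnar2, a chain of the type I interferon receptor, averaged 4.93 TPM in AM, 41.8 TPM in IM and 58.1 TPM in iMo, with log2 differences of AM of -2.82 ± 0.12 from IM and -3.31 ± 0.12 from iMo. Its partner chain Ifnar1 averaged 10.9 TPM in AM and 72.0 TPM in IM (-2.62 ± 0.15). Tyk2, a Janus kinase bound to that receptor (0.74 ± 0.09), and Ifnar2 (0.48 ± 0.12) were higher in iMo than in pMo. On deposited TPM no other gene of the list was called there, beside 18.9% higher and 6.36% lower in iMo among all tested genes. Both calls held after median-of-ratios scaling and in voom, each of which also called 1 gene of the list lower in iMo. Ifnar2 was also higher in DBA2J IM, at 52.7 TPM, than in C57BL6J IM, at 30.8 TPM (0.76 ± 0.16, adjusted p = 0.0147), as was Ifnlr1, a chain of the type III receptor (1.30 ± 0.28, adjusted p = 0.0142), while the kinase Jak3 was lower (-0.74 ± 0.19, adjusted p = 0.0308), a call lost with median-of-ratios scaling (adjusted p = 0.0801). On average over the cell types Ifngr1 (-0.56 ± 0.11) and Il10rb (-0.40 ± 0.10) were lower and Ifnlr1 (0.87 ± 0.14) and Ifnar2 (0.31 ± 0.08) higher in DBA2J.

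Upstream of IRF3, IRF5 and IRF7, 22 of 23 tested sensors, adaptors and kinases were lower in AM than in IM and 1 was higher (median -1.16), beside 61.1% lower among all tested genes. Median-of-ratios scaling left 11 lower and 2 higher. Against iMo 19 were lower and 2 higher in AM, and against pMo 19 lower and 3 higher, beside 54.3% and 46.6% lower among all tested genes. With median-of-ratios scaling 17 were lower and 3 higher in AM than in iMo, and 15 lower and 3 higher than in pMo. Tlr9, the receptor for unmethylated CpG DNA that signals to IRF7, had the largest difference, with means of 1.34 TPM in AM, 200 TPM in IM, 381 TPM in iMo and 154 TPM in pMo. AM differed from iMo by -7.31 ± 0.16 (adjusted p = 7.9e-11). Tlr13, a receptor for bacterial ribosomal RNA, averaged 10.9 TPM in AM and 92.2 TPM in IM (-2.94 ± 0.21). Between iMo and pMo 11 of the 23 were higher in iMo and none lower (median 0.50), or 9 and 3 with median-of-ratios scaling, led by the kinase Ikbke, which phosphorylates IRF3 and IRF7, at 33.4 TPM in iMo and 7.85 TPM in pMo (1.93 ± 0.20). In AM, Ikbke was the single gene of this list called between strains, at 4.44 TPM in DBA2J and 0.899 TPM in C57BL6J (1.52 ± 0.28, adjusted p = 0.00970).

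The inhibitors moved in both directions. Of 16 tested, 9 were lower and 1 higher in AM than in IM (median -0.58, close to that of all genes). Among all tested genes 61.1% were lower and 9.19% higher in AM. With median-of-ratios scaling 6 of the 16 were lower and 7 higher. Usp18, which blocks the type I receptor, averaged 0.303 TPM in AM, 11.3 TPM in IM and 17.8 TPM in iMo (-3.21 ± 0.17 for AM against IM). Socs2 and Cish, feedback inhibitors of cytokine receptors, ran the other way between AM and iMo, with 17.4 TPM in AM and 0.0993 TPM in iMo for Socs2 (4.06 ± 0.25) and 39.1 TPM in AM and 1.70 TPM in iMo for Cish (3.93 ± 0.26). Socs3, which inhibits STAT3 signalling, averaged 10.7 TPM in AM, 162 TPM in IM, 103 TPM in iMo and 220 TPM in pMo, and was lower in iMo than in pMo by a difference of -1.24 ± 0.15. Socs1 was lower in DBA2J than in C57BL6J on average, at 3.21 TPM and 9.13 TPM (-1.09 ± 0.18, adjusted p = 0.00185).

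A list named for DNA-binding partners of IRF4 and IRF8 also held other regulators, such as Id2, Zeb2 and Klf4. Of its 14 tested genes 8 were lower and 2 higher in AM than in IM, close to the 61.1% lower among all tested genes. Their median of -0.78 was close to the -0.68 of all. With median-of-ratios scaling 6 were lower and 6 higher. Batf3, a partner of both factors, averaged 3.80 TPM in AM, 16.5 TPM in IM, 29.5 TPM in iMo and 6.51 TPM in pMo, and was higher in iMo than in pMo (2.03 ± 0.12), while the libraries of AM (2.63 to 5.09) and pMo (4.67 to 7.80) overlapped. Spib, a relative of PU.1 that is also a B cell gene, averaged 1.46 TPM in AM, 28.0 TPM in IM and 31.9 TPM in pMo. Of the 6 other tested genes of both families, 5 were lower and none higher in AM than in IM (3 and 1 with median-of-ratios scaling). Against iMo 6 were lower in AM (5 with that scaling). Among all tested genes 61.1% were lower in AM than in IM and 54.3% than in iMo. Of 11 tested class I and class II antigen presentation genes and their activators, all 11 were lower in AM than in IM, iMo and pMo. Of all tested genes 61.1%, 54.3% and 46.6% were lower in AM in these comparisons. After median-of-ratios scaling 7 of the 11 were lower and 2 higher than in IM, and 10 were lower than in iMo and in pMo. Ciita, the class II activator, averaged 1.84 TPM in AM and 42.3 TPM in IM (-3.95 ± 0.16), and H2-Aa 31.8 TPM in AM and 1595 TPM in IM. Of 8 interferon genes listed, 1 reached the level needed for testing, and it was called in none of the comparisons on deposited TPM (after median-of-ratios scaling it was lower in IM than in pMo).

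**Figure D3:**
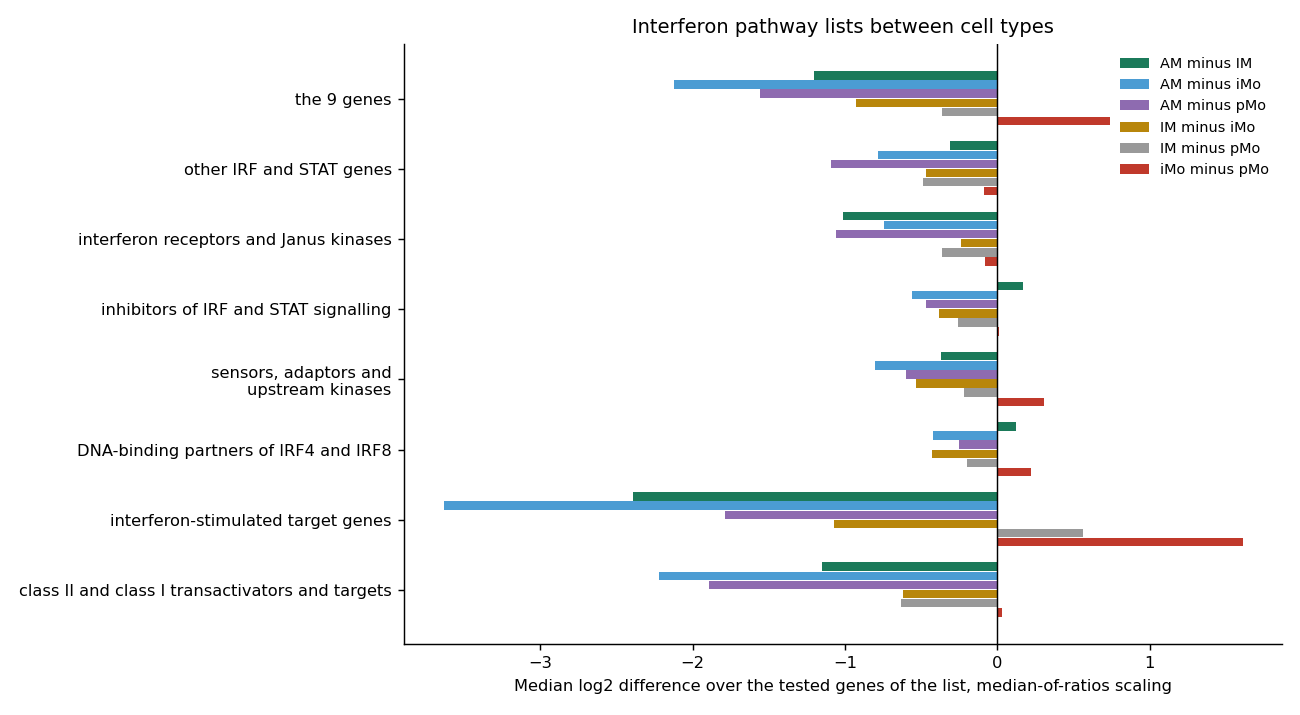
Median log2 difference, with median-of-ratios scaling, over the tested genes of each list (vertical axis) in the 6 comparisons of cell types (colours). The interferon-stimulated target genes reach -3.63 for AM against iMo and 1.61 for iMo against pMo. The lists named for inhibitors and for DNA-binding partners lie at 0.17 and 0.12 for AM against IM.

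The genes whose levels ran most like each of the 9 across the 16 libraries were taken by Pearson's r on log2(TPM + 1), 3 per gene, and are given for the genes other than Irf2. Points share a cell type in groups of 4 and the ribosomal share of their library, and no p is given. Which genes came nearest hung on the measure: with median-of-ratios scaling Copz1 stood at place 38 for Stat2 and Arf6 at place 47 for Irf1, and by Spearman's rho Tap1 stood at place 237 for Irf1. For Irf7 these were Plac8, Nhsl2 and Tiam1 (r from 0.994 to 0.995), for Irf9 Usp18, Nhsl2 and Tmpo (0.985 to 0.987), for Stat2 Copz1, Abca6 and Dpy19l1 (0.981 to 0.984) and for Irf4 Ccr2, Hp and Oas1b (0.983 to 0.985). Ccr2 is the chemokine receptor of inflammatory monocytes, and its own mean was 5.76 TPM in AM, 772 TPM in IM, 1322 TPM in iMo and 204 TPM in pMo. Irf1 ran with Arf6, Tap1 and Wdr26 (0.976 to 0.981), Irf5 with Syne3, Sh2b3 and Prkcd (0.993 to 0.996) and Irf8 with Psma7, Chst12 and Tifab (0.950 to 0.961). Irf3 had no gene above 0.872, its nearest being Lrrc45, Cntrob and Skiv2l. Within the 9, Irf1 and Irf9 (0.98) and Irf5 and Irf7 (0.98) ran closest, and the pairs with Irf3 lay between 0.30 and 0.60 on deposited TPM and between -0.46 and 0.35 with median-of-ratios scaling.

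Open chromatin at the start sites was described from the 8 peak lists, of 24429 to 70013 peaks of 200 bp each, whose score is the authors' own and is not comparable between lists. Within 1 kb of the table's start site, 6 of the 9 genes had a peak in C57BL6J AM and 8 in each of the other 7 lists, against 62.6% of all tested genes in C57BL6J AM and 68.8% to 84.6% in the others. Stat2, Irf1 and Irf2 had a peak at the start site in all 8 lists. That of Stat2 was among the best scored of its list, at the 97.1 percentile in both AM lists, although the RNA was lowest in AM. Its ISRE and EICE letters, at positions -222 to -213 and -216 to -207 from the start site, are those printed above. Irf4 too had a start site peak in all 8 lists, at 92.8 in DBA2J AM and 73.6 in C57BL6J AM, percentiles 75.6 and 75.7 of those lists, despite its low RNA there. Irf9 had a peak in all 8 lists near the RefSeq start at -594 bp from the table's, and at the table's own start in 3.

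**Figure D4:**
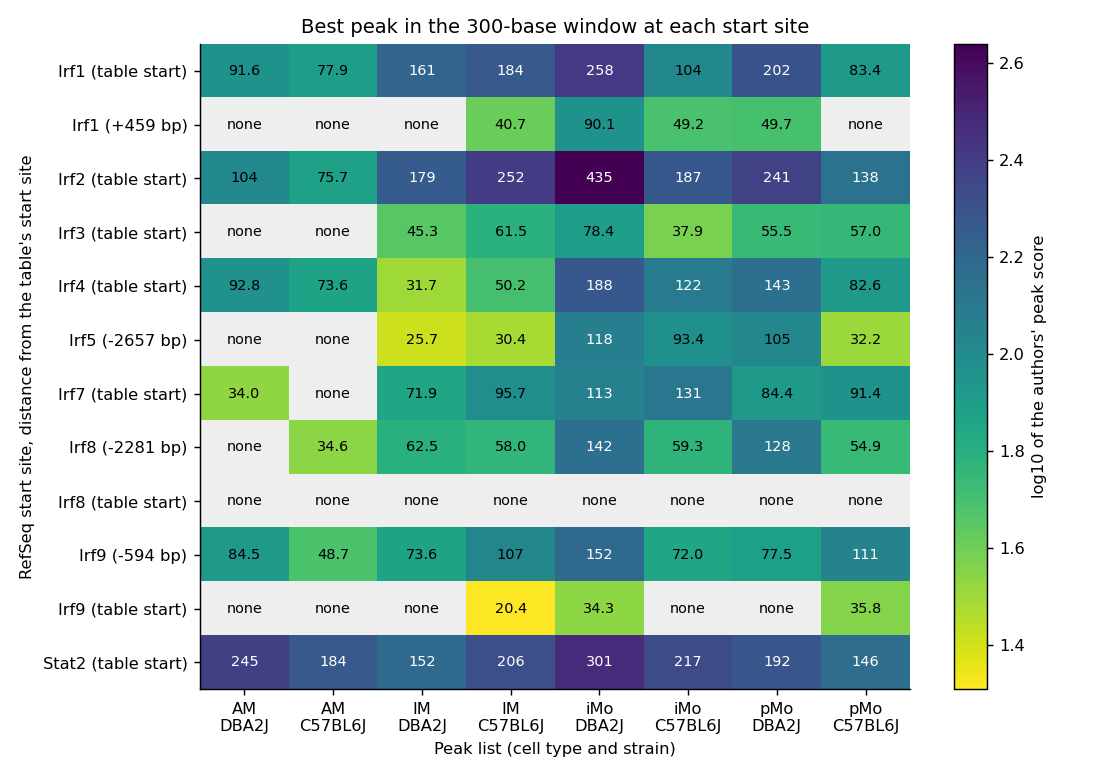
The authors' score of the best peak in the 300-base window of each RefSeq start site (rows) in the 8 peak lists (columns), on a log colour scale, with grey for no peak. Scores do not compare between lists. The windows of Irf3 and of the upstream start of Irf5 have a peak in all 6 other lists and none in AM. For Irf3, DBA2J AM has a peak just outside the window, at -357 bp, and the DBA2J IM peak is centred at -342 bp.

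Irf7, Irf3, Irf5 and Irf8 differed between lists at a start site, as did the table's start of Irf9, above, and a second RefSeq start of Irf1 at 459 bp from the table's, which had a peak in 4 lists (C57BL6J IM, both iMo lists and DBA2J pMo) and in neither AM list. The Irf7 start site had a peak in DBA2J AM at the 20.4 percentile of that list (score 34.0), and none in C57BL6J AM. In the other 6 lists its peak lay at the 59.6 to 90.1 percentiles of the list. The RNA levels were also lowest in C57BL6J AM. A region 2.6 kb upstream of Irf7 was open in all 8 lists, with scores of 193 in DBA2J AM and 132 in C57BL6J AM. Irf5 has a second RefSeq start at -2657 bp from the table's, printed above, with a peak in all 6 lists of IM, iMo and pMo (25.7 to 118) and in neither AM list, whereas the table's start was open in all 8. For Irf3 the 300-base window at the start held a peak in the same 6 lists and in neither AM list. Between DBA2J IM and DBA2J AM this rests on the window's edge. The DBA2J IM peak was centred at -342 bp, and DBA2J AM had one of score 37.6 at -357 bp. A region at -21 bp was open in 5 lists, C57BL6J IM and both lists of iMo and of pMo. Irf8 had no peak at the table's start in any list. The 300-base window of its RefSeq start at -2281 bp, with the GAS letters printed above, had no peak in DBA2J AM. It held one in each of the other 7 lists, among them C57BL6J AM (34.6). Just downstream, at -1939 bp from the table's start, DBA2J AM had a peak of score 37.6. C57BL6J AM (22.7) and C57BL6J IM (9.46) had it too. A missing peak says that none passed the authors' threshold in that list, and over all 32851 promoter windows 23.9% to 26.7% held a peak in the AM lists and 29.2% to 38.3% in the other 6.

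Around the 9 genes, 90 merged regions were assigned by the nearest start site within 100 kb, from 1 at Stat2 and 2 each at Irf3 and Irf9 to 23 at Irf8. Of the 90, 16 were in all 8 lists (17.8%, against 13.9% of all 91199 regions) and 28 in 1 list only (31.1%, against 35.9%). In all 6 other lists but no AM list was 1, the upstream region of Irf5 (1.11%, against 2.65%). In both AM lists only were 6 (6.67%, against 4.33%). Of these 6 AM regions 4 lay around Irf4, at 12.5 kb upstream and at 39.4, 65.2 and 85.3 kb downstream, with scores of 106, 38.7, 79.8 and 28.2 in DBA2J AM and 50.9, 41.1, 23.8 and 23.8 in C57BL6J AM. The others lay 4.9 kb downstream of the Irf1 start and 2.6 kb downstream of the Irf8 start. Irf4, Irf1 and Irf8 had these regions in the AM lists alone, while their RNA levels on deposited TPM were lowest in AM. For Irf8 that order hung on the scaling. With median-of-ratios scaling its difference of AM was 0.26 from IM (adjusted p = 0.230) and -0.41 from pMo (adjusted p = 0.0745). Irf8 had 13 assigned peaks in DBA2J AM and 9 in C57BL6J AM, against 1 in DBA2J IM, 21 in C57BL6J IM and 3 to 7 in the monocyte lists. With each list cut to the smallest size these were 6 and 6 in AM, 1 and 4 in IM and 1 to 2 in the monocytes. The DBA2J IM list is the shortest of the 8, with 24429 peaks, and the C57BL6J IM list the longest, with 70013.

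**Figure D5:**
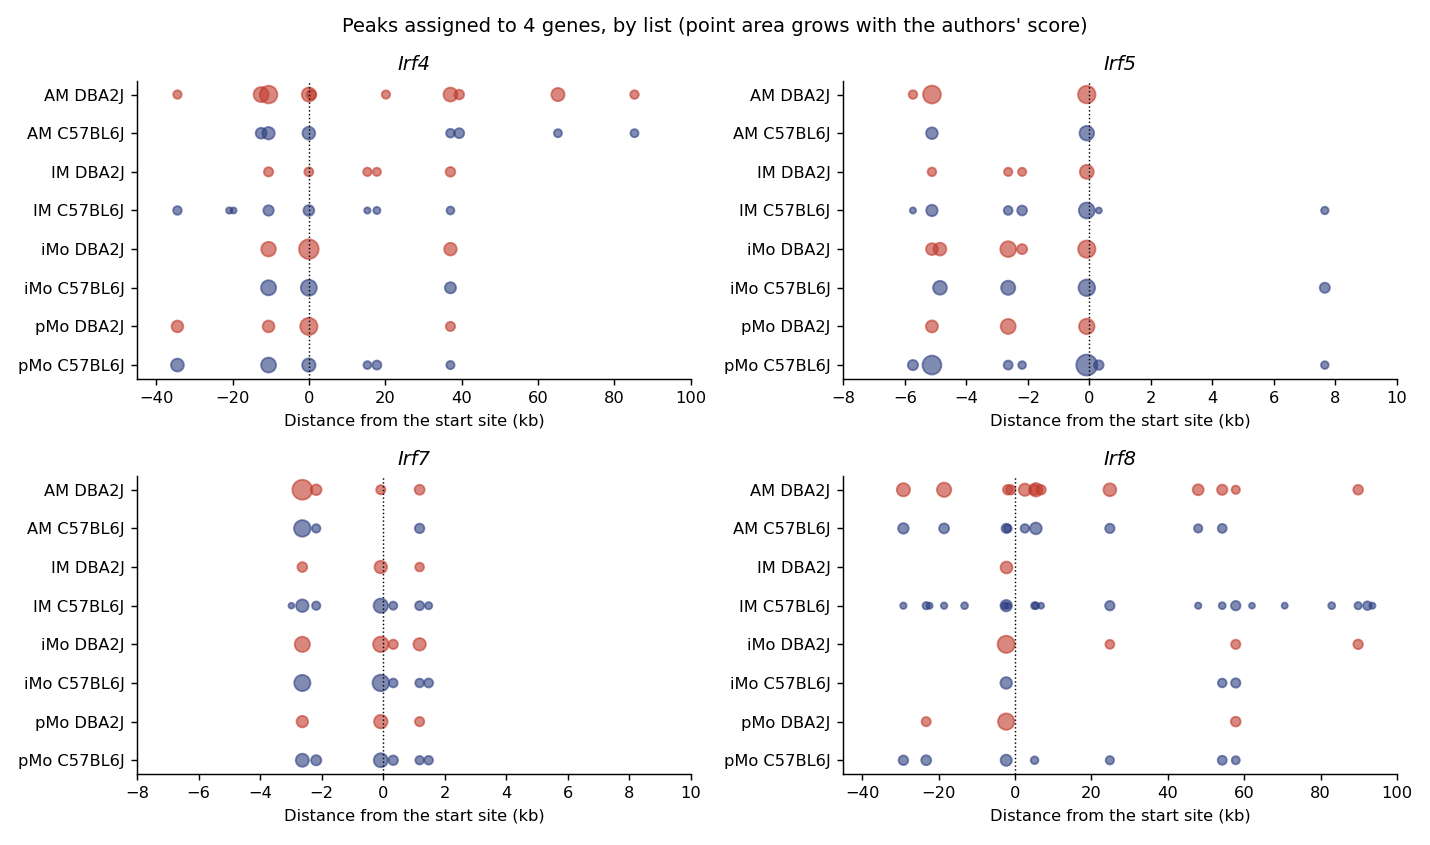
Peaks assigned to Irf4, Irf5, Irf7 and Irf8 by distance from the table's start site (horizontal axis, kb) in the 8 lists (rows), with red for DBA2J and blue for C57BL6J and point area growing with the authors' score. The regions of Irf4 at -12.5, 39.4, 65.2 and 85.3 kb appear in the AM rows only, and the Irf5 region at -2.6 kb in the other 6 rows only.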

How the data were processed

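RNA-seq and ATAC-seq libraries were grouped by the cell type and strain in their titles. The authors deposited RNA levels as TPM per gene and 1 peak list per group with a score per peak, on a scale that no source used here states. The submitters' processing notes name mm10, HOMER, Bowtie and STAR, and the labels' protocols describe a strand-marking (dUTP) library, while the counting settings are not given in the sources used here. Each peak list was made from 2 libraries and is named for IDR (a reproducibility step), per the labels.

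The table's length equals the gene's genomic span, and TPM times length gave whole reads within 0.1 read for 100% of the values checked (those up to 200 reads), so depth was recovered from the deposited values. The fit used log2(TPM + 1) in limma 3.58.1 (R 4.3.3), with a mean for each of 8 groups and eBayes with a trend, and a strain by cell type F-test. P-values were adjusted over the 12277 tested genes. Peaks within 1 kb of a start counted as promoter peaks, and others were assigned to the nearest start within 100 kb. Sequences are from RefSeq. Motifs were searched on both strands. Promoters, peaks and correlations were handled in Python 3.11.15 (pandas 2.3.3, numpy 2.4.6, and matplotlib 3.10.9 for figures). The fit was checked on simulated data.

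Named genes are the 9 genes, 3 alike genes each, up to 4 called genes of a list per comparison with the largest differences, and of peaks the promoter peaks and best regions. Not all genes the rule allows are reported here. The regions in both AM lists only were named after their values were seen. The 9 genes and the lists were chosen with earlier results of these data known. Alternatives covered the pseudocount, filter, scaling, ribosomal entries, trend, library weights, a replicate block, fits on the compared groups, a fold minimum, each strain, each library, promoter window, list length and assignment. Voom on the recovered reads and RefSeq start sites were chosen after seeing the data.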

Additional observations from a re-analysis of the deposited data

How the results depend on the processing

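Of 1269 recomputed differences of the 9 genes (leaving libraries out aside), 1205 kept their direction and side of the threshold, sign changes of differences that passed in neither fit included. Those that turned round were Irf8 between AM and IM (0.26 with median-of-ratios scaling, 0.11 with voom), Irf3 between AM and iMo (0.31 with median-of-ratios scaling, 0.37 with quantile normalization, 0.29 without the ribosomal entries, 0.32 with voom) and Irf3 between AM and pMo (0.07, 0.04 with quantile normalization and 0.15 with voom). They follow the scaling, which moves the median of all genes. The number of the 9 genes called between IM and iMo was 4 in DBA2J alone and 4 with a minimum log2 difference of 1. Between IM and pMo it was 2 with library weights, 2 in C57BL6J alone and 0 with that minimum, and between iMo and pMo 3 with it. On average between strains 1 gene was called with median-of-ratios scaling, quantile normalization or voom. In AM between strains it was 0 without a filter, with a replicate block, with only the groups compared or with the minimum, 3 with library weights, and 2 without both C57BL6J IM libraries. In IM it was 1 with quantile normalization, and for the interaction 1 with median-of-ratios scaling, with voom or without both C57BL6J IM libraries. The cause was not tested.

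Leaving out 1 library gave 8 calls between AM and IM, 9 between AM and iMo, 9 between AM and pMo, 7 to 8 between IM and iMo, 3 to 5 between IM and pMo and 6 to 7 between iMo and pMo. It gave 0 to 1 on average between strains, 0 to 2 in AM, 0 to 1 in IM, 0 to 1 in iMo, 0 in pMo and 0 to 2 for the interaction. Replicate numbers did not pair the libraries (12 pairs of groups within a strain, median correlation of deviations 0.02, from -0.07 to 0.15). With the replicate block Irf4 in AM had an adjusted p of 0.0532, and the count moved in no other comparison. The number of the 9 genes with a promoter peak stayed within 1.5 times under every window and list setting. The number of peaks assigned to a gene in a list was less stable, and moved by over 1.5 times in 89 of 216 recomputed counts (within 20 kb, the better-scored part of each list, or lists cut to the smallest size). Low reads limit Irf7 and Irf4 in AM most.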
